A study of Mus musculus with 4 samples.

Results

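The genes examined were the nuclear genes of oxidative phosphorylation, and the question was at which of their promoters open chromatin was detected in the mouse aorta at P60, with or without the VEDS allele. Members were the protein-coding genes of chromosomes 1 to 19 in the GENCODE vM21 annotation whose symbol starts with Nduf, Uqcr or Atp5, or with Cox4 to Cox8, together with *Sdha*, *Sdhb*, *Sdhc*, *Sdhd* and *Cyc1*. This gave 91 of 20698 genes. The rule itself uses only gene symbols and the annotation.

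The respiratory chain of the inner mitochondrial membrane passes electrons from NADH and succinate to oxygen through complexes I to IV, and ATP synthase (complex V) makes ATP from the proton gradient that results. Most of its subunits are encoded in the nucleus and a few in the mitochondrial genome, so that the nuclear genes have to be expressed in many cell types at matched levels. Their promoters are known for binding sites of the nuclear respiratory factor NRF1, of ETS factors such as GABPA, of YY1 and of the estrogen-related receptors (ERR), and muscle, lung and testis use isoforms of some complex IV subunits.

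The data were 4 aggregate ATAC-seq libraries. ATAC-seq marks open chromatin by the insertions of the transposase Tn5, and a peak is a region with more fragments than the local background. Control mice were *Col3a1*+/+ and VEDS mice were *Col3a1*G938D/+, heterozygous for a glycine substitution (G938D) in type III collagen and a model of vascular Ehlers-Danlos syndrome. All were 60 days old, with no drug named in the labels, and each genotype had 1 library from females and 1 from males, each from the pooled aortas of 2 mice. Nuclei went through a single-cell kit but were analyzed without separating cells, so the share of each cell type and the openness per cell cannot be told apart.

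The peak lists differed widely in length. Those of the controls held 21176 (female) and 1236 (male) peaks, and those of VEDS mice 504 (female) and 41444 (male). The median peak summit held 14, 7, 6 and 22 fragments in that order. The total number of fragments is not given in the lists. Genotype, sex and depth cannot be separated here, because the long lists are the control female and the VEDS male ones, and no library has a replicate of its genotype and sex. A gene without a peak was therefore not taken as closed. The promoters of 6 of 6 smooth muscle marker genes had a peak in both long lists, against 0 of 4 for immune, 0 of 4 for white adipocyte and 1 of 5 for fibroblast markers in each, and 0 and 2 of 5 for endothelial, 0 and 1 of 4 for brown adipocyte and 0 and 1 of 7 for cardiac and skeletal muscle markers.

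The sequences below were chosen because they carry the letters that recur around the TSS of these genes. They are reference sequence of the mouse genome build GRCm38 (mm10), printed 5′ to 3′ on the strand of the gene, and capitals mark the match. For NRF1 (letters GCGCANGCG, where N is any base) the examples are the member with the strongest control female peak among those that match from −200 to +99 of the TSS, *Ndufa6* (a complex I accessory subunit), and *Sdha*, the flavoprotein subunit of complex II, with 3 matches within 100 bp of its TSS.
*Ndufa6*, chr15:82354249-82354277, minus strand: cgtggcaccgCGCGTGCGCacgctgaagg
*Sdha*, chr13:74350320-74350348, minus strand: cgtttacaggGCGCAGGCGcaccaccact
*Sdha*, chr13:74350277-74350305, minus strand: ggggcgtgttGCGCAGGCGcagaatcttc
*Sdha*, chr13:74350232-74350260, minus strand: gcgactcggtGCGCAAGCGcagtctgtcg

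The stretch just upstream of *Cox6a1*, a complex IV subunit, holds 2 separate NRF1 matches, of which the upstream one (10 capitals) reads the same on both strands and was counted on each. It covers −160 to −1 of the TSS, and both matches lie inside the promoter peak of both long lists.
*Cox6a1*, chr5:115348982-115349141, minus strand: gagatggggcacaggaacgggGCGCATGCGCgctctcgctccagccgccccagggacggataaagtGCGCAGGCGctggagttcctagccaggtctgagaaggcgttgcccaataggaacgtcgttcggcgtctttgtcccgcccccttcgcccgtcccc

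For ETS factors (CCGGAAGT, on the other strand ACTTCCGG) the example, chosen in the same window, is *Cox8a*, another complex IV subunit, with matches that start at −6 and 31 bp from the TSS.
*Cox8a*, chr19:7217605-7217632, minus strand: tttccgaaatACTTCCGGctcgggcgtc
*Cox8a*, chr19:7217568-7217595, minus strand: cagcgccggaACTTCCGGctggttcggc

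For YY1 (AANATGGCG) the member with the strongest control female peak among those that match from −200 to +99 was *Atp5b*, the catalytic subunit of ATP synthase, where it lies on the other strand as CGCCATNTT. The lines after it are examples of the members in which the ATG within the YY1 letters is the annotated start codon of the gene.
*Atp5b*, chr10:128083313-128083341, plus strand: acccggattcCGCCATGTTgagtcttgtg
*Ndufa6*, chr15:82354213-82354241, minus strand: cttcctcggcAAGATGGCGgccgcggcca
*Ndufa7*, chr17:33824617-33824645, plus strand: gagcggaaggAATATGGCGtccgctactc
*Ndufa9*, chr6:126849097-126849125, minus strand: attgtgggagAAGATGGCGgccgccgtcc
*Ndufc1*, chr3:51408915-51408943, minus strand: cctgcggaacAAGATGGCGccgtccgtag
*Ndufs3*, chr2:90904632-90904660, minus strand: cacactaaggAACATGGCGgcggctgcag
*Ndufs4*, chr13:114388041-114388069, minus strand: tgcctacaggAAGATGGCGgcggtctcaa
*Ndufs6*, chr13:73328431-73328459, minus strand: ggtcaccggcAAGATGGCGgcggtgctga
*Ndufs7*, chr10:80249463-80249491, plus strand: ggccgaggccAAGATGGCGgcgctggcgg
*Sdhb*, chr4:140961392-140961420, plus strand: gtcaggagccAAAATGGCGgcgacggtcg
*Uqcrb*, chr13:66905296-66905324, minus strand: ctctcaggtcAAAATGGCGggccgatctg
*Uqcrc1*, chr9:108936706-108936734, plus strand: cggaagttagAAGATGGCGgcgtccgcag

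For ERR (CAAGGTCA, on the other strand TGACCTTG) the lines are the 14 members, apart from *Ndufa2*, with the antisense letters from 100 to 500 bp downstream of the TSS, all in an intron of the gene. Beyond the strongest member for each factor, the sequences shown were chosen after their positions were seen.
*Atp5b*, chr10:128083486-128083513, plus strand: cttctccccgTGACCTTGagcttgggcc
*Atp5e*, chr2:174463712-174463739, minus strand: acgctgacacTGACCTTGctcacctgcg
*Atp5g2*, chr15:102670919-102670946, minus strand: gtggccgcccTGACCTTGctagctccca
*Atp5mpl*, chr12:111966789-111966816, minus strand: cgatacacgcTGACCTTGggtcagcccc
*Atp5o*, chr16:91931321-91931348, minus strand: ttctctgtctTGACCTTGacatccagga
*Cox4i1*, chr8:120668463-120668490, plus strand: agcggctcggTGACCTTGgggcgcccgc
*Cox5b*, chr1:36691892-36691919, plus strand: aggtgccgggTGACCTTGgaacacaagg
*Cox6a1*, chr5:115348742-115348769, minus strand: cccggggcggTGACCTTGgcgggaggga
*Cox6c*, chr15:35937798-35937825, minus strand: gcggccaggtTGACCTTGattgggtcgt
*Ndufa12*, chr10:94199399-94199426, plus strand: cccctcacggTGACCTTGggcaagtttt
*Ndufaf5*, chr2:140170993-140171020, plus strand: cccgactgtgTGACCTTGagaagcttca
*Ndufb5*, chr3:32737248-32737275, plus strand: tgtttccaggTGACCTTGgggacctccg
*Uqcr10*, chr11:4704120-4704147, minus strand: tgggccatccTGACCTTGggcccgcctg
*Uqcrh*, chr4:116074760-116074787, minus strand: attctttggtTGACCTTGggcagattaa

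A promoter peak was a peak whose edge lay within 1 kb of the TSS of the gene's leading coding transcript. In the control female library 79 of the 91 genes had one (86.8%, 95% Wilson interval 78.4 to 92.3), against 42.6% of all protein-coding genes. In the VEDS male library 84 did (92.3%, 85 to 96.2), against 52.9% of all. The short lists held 3 members in the control male (3.3%, 1.13 to 9.25, against 1.23% of all genes) and 1 in the VEDS female library (1.1%, 0.194 to 5.96, against 1.27%). In both long lists the share of these genes stood well above the share of all genes, and in the short lists the intervals were too wide to place it. The intervals cover counting error over genes only.

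**Figure D1:**
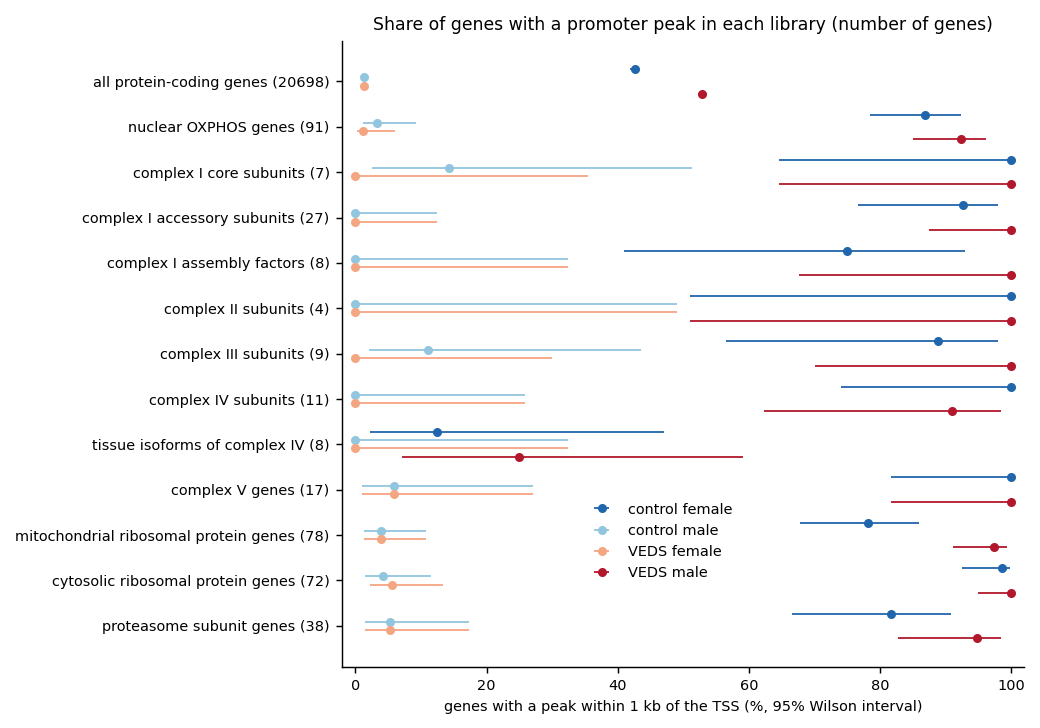
Share of genes with a peak within 1 kb of the TSS (x axis, percent, with 95% Wilson intervals) for each gene group (y axis, number of genes in brackets) in the 4 libraries. In the long lists (control female, VEDS male) the respiratory chain genes stand at 86.8% and 92.3% against 42.6% and 52.9% of all genes, and the complex IV tissue isoforms at 12.5% and 25%.

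For comparison, other broadly expressed families had a promoter peak in the long lists (control female first) for 78.2% and 97.4% of 78 mitochondrial ribosomal protein genes, for 98.6% and 100% of 72 cytosolic ribosomal protein genes, and for 81.6% and 94.7% of 38 proteasome subunit genes. The share among respiratory chain genes lay within this range in the control female list and below it in the VEDS male list. Without the 8 tissue isoforms of complex IV the shares were 94% (78 of 83) and 98.8% (82 of 83).

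Control and VEDS could be compared over only 2 libraries each. The mean share of members with a promoter peak was 46.7% (SD 64.5, n = 2) in VEDS and 45.1% (SD 59.1, n = 2) in control, a difference of 1.65 percentage points with an exact two-sided permutation p of 1 (the smallest p this design allows is 0.333). The spread within a genotype was thus many times the difference. In the union of its 2 lists each genotype reached 79 (control) and 84 (VEDS) members. When every list was cut to its 504 strongest peaks, the length of the shortest one, members numbered 3 and 1 among the controls (female, male) and 1 and 6 in VEDS. These were 3.3% and 1.1% of members against 2.24% and 0.546% of all genes in control. In VEDS they were 1.1% and 6.59% against 1.27% and 2.24%. The genotype difference was again 1.65 points. Leaving out 1 library turned the sign of the difference in 2 of 4 cases.

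Of the 91 genes, 75 had a promoter peak in the 2 long lists only and 3 more in a short list as well. A further 6 were in the VEDS male list only, 1 was in the control female list only and 6 were in none. Among all 20698 protein-coding genes, 10950 had a VEDS male promoter peak and 8817 a control female one, with 8777 genes having both. A peak in the VEDS male list without one in its control female counterpart was thus common among all genes too. *Atp5g1*, which encodes the c subunit of the ATP synthase rotor, was the only member found in all 4 libraries. Among the controls its peak had a −log10 q of 39.3 with 50 fragments at the summit (female) and of 5.98 with 10 fragments (male). In VEDS the values were 2.75 with 6 fragments (female) and 90 with 115 fragments (male). These values depend on the depth of each library and were not compared across lists. The summit stood at −298, −146, −240 and −185 bp, upstream of the TSS in every library. Its paralogs *Atp5g2* and *Atp5g3*, which encode the same mature protein, had a promoter peak in the 2 long lists only, with −log10 q of 13.8 and 17.3 in the first and 34.5 and 37.7 in the second.

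The control male list also held *Ndufv2*, a core subunit of the NADH-oxidizing module of complex I, with a −log10 q of 3.46 and 6 fragments, and *Uqcrh*, the hinge protein of complex III, with 1.35 and 5 fragments. Both were present in the long lists, *Ndufv2* with a −log10 q of 13.4 and 53.9 and *Uqcrh* with 16.9 and 52.1 (control female first). Neither had a peak in the VEDS female list. The control male *Uqcrh* peak is close to the lowest −log10 q of that list, 1.32.

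**Figure D2:**
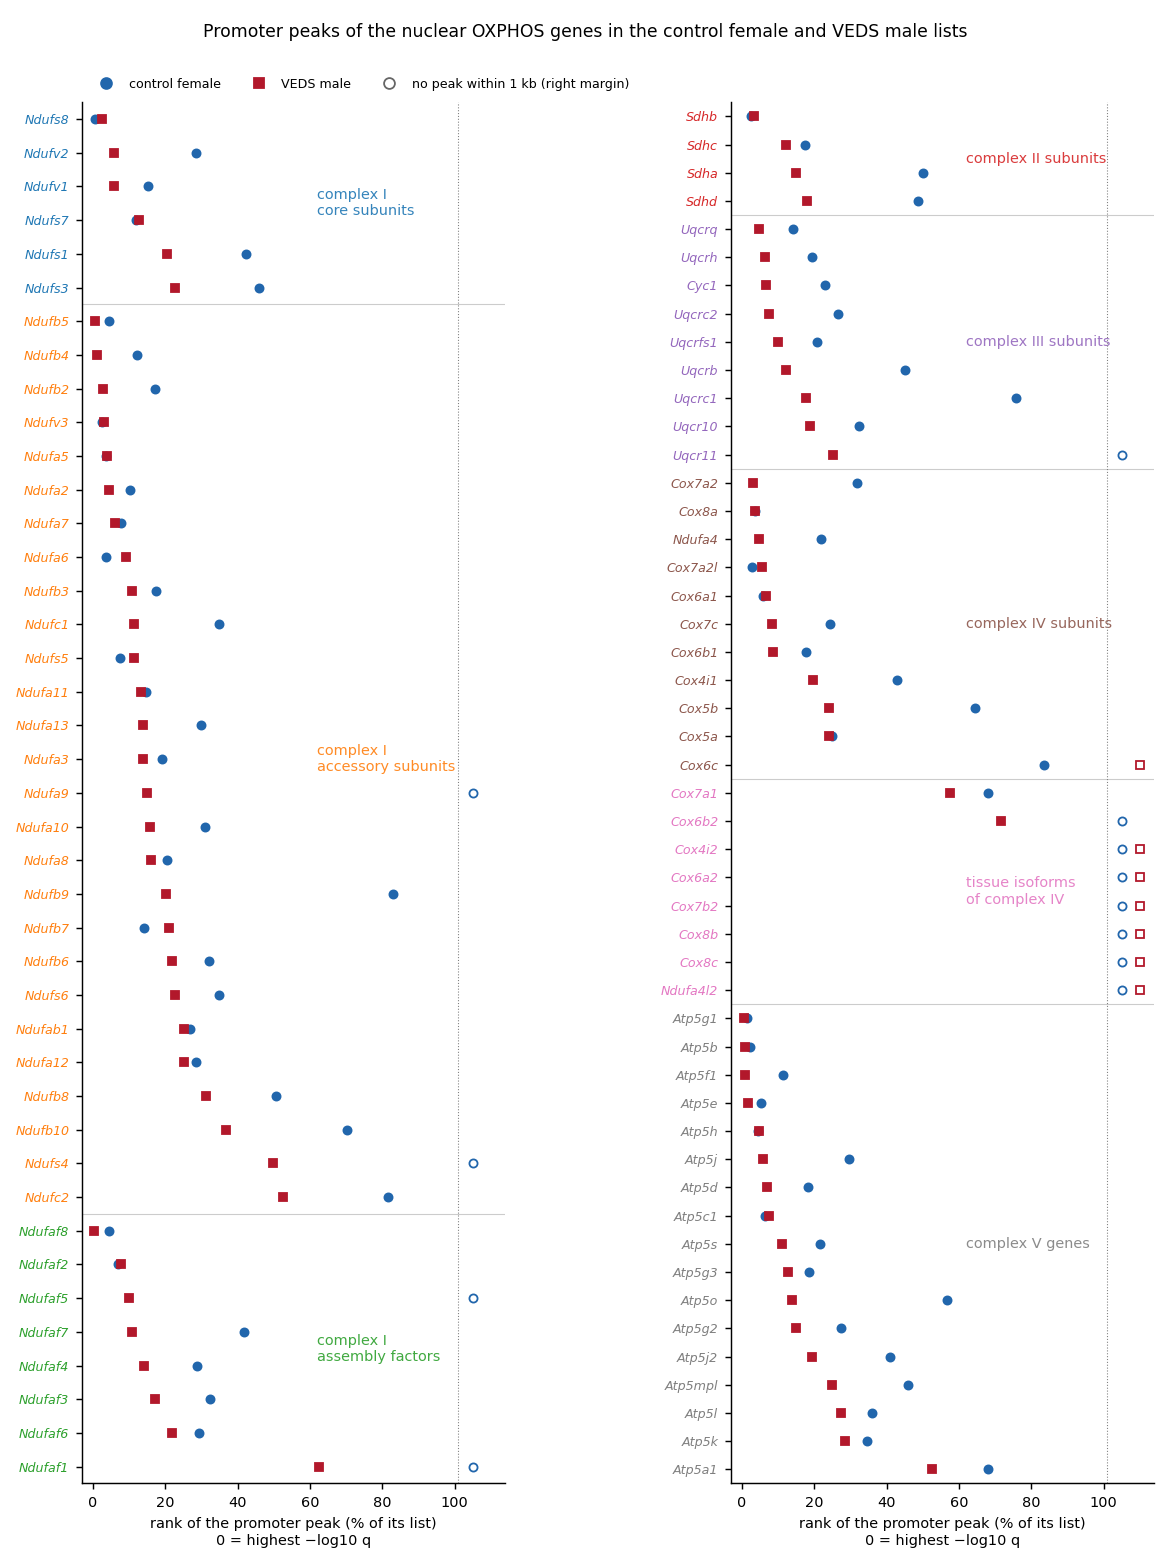
Rank of the promoter peak of each gene in its list (x axis, percent of the list, 0 for the highest −log10 q) for the control female (circles) and the VEDS male (squares), with the genes shown (y axis, 90 of 91) grouped by complex and open symbols at the right for no peak within 1 kb. Of the 8 complex IV tissue isoforms 6 have open symbols for both lists, while complex II and complex V have filled symbols throughout.

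Complex I takes electrons from NADH and has 7 core and 27 accessory subunits in the set. All 7 core genes had a promoter peak in both long lists, and the accessory genes had one in 25 and 27 cases. *Ndufs8*, a core subunit that carries iron-sulfur clusters, had the strongest promoter peak of the complex in the control female list (−log10 q 44.4, 50 fragments, rank 146 of 21176), and it was at 70.1 with 89 fragments in the VEDS male list. *Ndufb5*, an accessory subunit of the membrane arm, had the strongest of complex I in the VEDS male list (92.9, 100 fragments, rank 238 of 41444) and stood at 29.8 with 35 fragments in the control female list. *Ndufa9* and *Ndufs4* had a peak only in the VEDS male list, with a −log10 q of 34.2 and 11.3. The nearest control female peak was 90.4 kb from the *Ndufa9* TSS and 16.9 kb from that of *Ndufs4*.

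Of the 8 genes for complex I assembly factors, which help to build the complex and are not part of it, 6 had a control female and 8 a VEDS male promoter peak. *Ndufaf8* had the strongest of these in both lists, with a −log10 q of 29.5 (36 fragments) in the control female one and 100 (110 fragments, rank 147) in the VEDS male library. The TSS of *Tepsin* lay 197 bp upstream on the opposite strand. The summits were 44 and 66 bp from it, nearer than to the *Ndufaf8* TSS, so these peaks cannot be assigned to either gene. *Ndufaf1* and *Ndufaf5* were found in the VEDS male list only, with 8.08 and 42.8. The 4 genes of complex II, which oxidizes succinate, all had a peak in both long lists. *Sdhb*, the iron-sulfur subunit, was strongest in each (34.6 and 65.1), and *Sdha* was at 8.48 and 34.5.

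Complex III passes electrons from ubiquinol to cytochrome c. Its 9 genes had 8 control female and 9 VEDS male promoter peaks, and *Uqcrq* was strongest in both lists, with a −log10 q of 19.7 and 59.1. *Uqcr11* was found in the VEDS male list only, at 23.6 with 38 fragments. No complex III gene reached the 504 strongest peaks of a long list. Complex V had a peak within 1 kb of the TSS for all 17 genes in both long lists. The peaks assigned to *Atp5f1*, *Atp5j* and *Atp5j2* did not reach the TSS in either list. Their control female summits lay 719, 506 and 504 bp downstream of it, the first and second close to the TSS of a neighbouring gene. Besides *Atp5g1*, *Atp5b* was among the 504 strongest in both, with a −log10 q of 35.1 and 40 fragments in the control female library and 86.4 and 95 fragments in that of VEDS males.

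Complex IV, the cytochrome c oxidase, was split between its common subunits and its tissue isoforms. The 11 common genes had a promoter peak in 11 and 10 cases. *Cox7a2l*, a factor that joins complexes III and IV, led in the control female list (−log10 q 33.9) and *Cox7a2* in the VEDS male list (66.3). *Cox6c* was the only member found in the control female list alone, with a weak peak of 184 bp, a −log10 q of 4.16 and 7 fragments. Of the 8 tissue isoforms 6 had no promoter peak in any library: *Cox4i2*, *Cox6a2*, *Cox7b2*, *Cox8b*, *Cox8c* and *Ndufa4l2*.

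Set beside its common partner, each tissue isoform had no peak or the weaker one. *Cox4i1* had a −log10 q of 9.79 in the control female list and 28.5 in that of VEDS males, against no promoter peak for *Cox4i2*, the lung isoform. *Cox6a1* had 27.4 and 50.9, against none for *Cox6a2*, the heart and skeletal muscle isoform. *Cox8a* had 31.6 and 64.1, against none for *Cox8b* and *Cox8c*. *Ndufa4* had 15.8 and 59.1 with none for *Ndufa4l2*. For *Cox6b1* the values were 17.7 and 46.4, against no control female peak and 6.28 in the VEDS male list for *Cox6b2*, the testis isoform. *Cox7a1*, the muscle isoform, was the exception that had a peak in both lists, of 5.97 with 11 fragments and 9.14 with 20 fragments, against 12.3 and 66.3 for *Cox7a2*. Its summits were at −13 and −14 bp. *Cox7b* lies on the X chromosome and is not in the set, and its isoform *Cox7b2* had its nearest peak 655 and 521 kb from the TSS in the long lists.

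The summit marks the base of a peak with the most fragments. Member summits lay close to the TSS, with a median of −14 bp (quartiles −72 and 27.5, n = 79) in the control female and −24 bp (−64.5 and 12.25, n = 84) in the VEDS male list, where negative is upstream. For all genes with a promoter peak the medians were −52 and −48 bp. A summit within 100 bp of the TSS was found for 75.9% and 75% of members against 58.1% and 59% of all genes. The shares were 68.9% and 80.3% for mitochondrial ribosomal, 74.6% and 77.8% for cytosolic ribosomal and 77.4% and 75% for proteasome genes. Their medians were −25 and −20, −32 and −33.5, and −42 and −30.5 bp, so summits close to the TSS were not particular to the members. The summit was downstream of the TSS for 38% and 33.3% of members against 26.6% and 27.3% of all genes. With the 5′ end of the gene in place of the TSS of the leading transcript the medians of members and of all genes were −13 and −39 bp in the control female list and −21 and −34 bp in that of VEDS males.

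**Figure D3:**
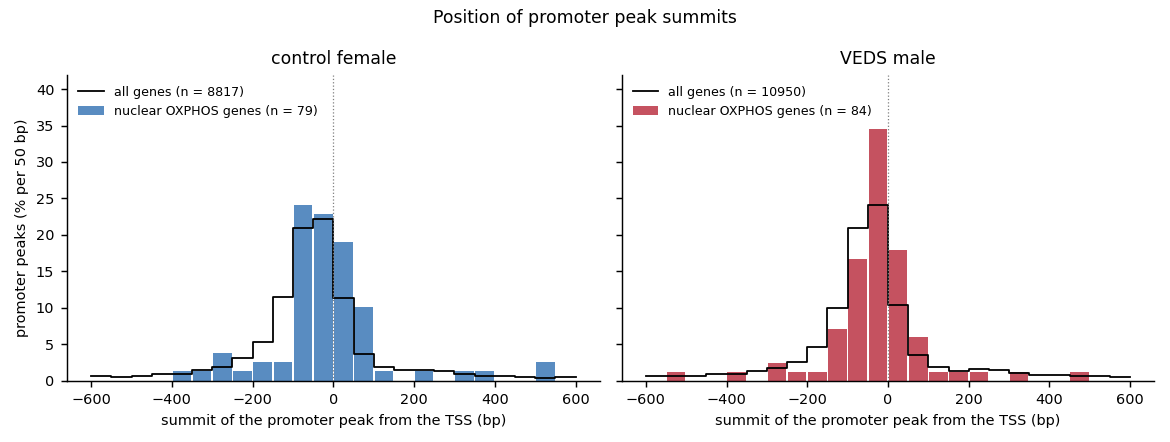
Distance of the promoter peak summit from the TSS (x axis, bp in bins of 50, negative upstream) as a percent of promoter peaks (y axis) for the respiratory chain genes (bars) and all protein-coding genes (line) in the control female and VEDS male lists. The bars lie nearer to the TSS, with medians of −14 and −24 bp against −52 and −48 bp, and 3 and 4 member summits lie outside the range drawn.

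Among the 78 members with a promoter peak in both long lists the summits of the 2 libraries were a median of 17 bp apart, and 67 (85.9%) were within 50 bp, against a median of 31 bp and 68.6% of 8777 genes. The peaks overlapped for 76 of the 78. The rank of a member's peak was similar in the 2 lists (Spearman's rho 0.78 over 78 genes, and 0.85 over the 8777 genes, given as a description since genes of one library share its depth).

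Member peaks had a median width of 320 bp (quartiles 225 and 407.5) in the control female list and 485.5 bp (368 and 589.75) in that of VEDS males, against 303 and 449 bp for all genes with a promoter peak. The widest were those of *Atp5l* (721 bp, control female) and *Ndufs8* (890 bp, VEDS male), and the narrowest those of *Atp5j2* (130 bp) and *Ndufs4* (146 bp). Of the 78 shared peaks 72 were wider in the VEDS male list (92.3%, against 91.3% of all genes). Fragments at the summit had a median of 19 for members and for all genes in the control female and 48.5 against 43 in the VEDS male list. Members stood at a median of 23.1% and 12.1% of the way down the list by −log10 q, against 27.3% and 18.2% for all promoter peaks, and 44.3% and 72.6% were in the fifth of it with the highest values against 39.8% and 53.4%.

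Many members begin close to another coding gene. The TSS of another protein-coding gene lay within 1 kb for 31 of 91 (34.1%, 25.2 to 44.3) against 11.7% of all genes, on the opposite strand in 30. The neighbour began upstream in 25 of the 31. The closest pairs were *Ndufs1* and *Eef1b2*, a translation elongation factor gene, at 3 bp and *Ndufa7* and *Rps28*, a ribosomal protein gene, at 10 bp. Pairs with genes of the mitochondrial ribosome were *Ndufs6* with *Mrpl36* at 29 bp and *Ndufb5* with *Mrpl47* at 157 bp. The share was 41% among mitochondrial ribosomal, 18.1% among cytosolic ribosomal and 18.4% among proteasome genes.

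In such pairs the peak cannot be assigned to either gene. The summit was nearer to the neighbour's TSS in 15 of 30 pairs with a control female peak and in 12 of 31 with a VEDS male peak. The control female summit assigned to *Atp5j*, at 506 bp inside the gene, lay 5 bp from a TSS of *Gabpa*, the gene of the ETS factor GABPA that is itself a regulator of the respiratory chain, and that of *Atp5f1*, at 719 bp, lay 11 bp from the TSS of *Wdr77*. These are also among the summits farthest downstream, the farthest in the VEDS male list being that of *Ndufa13* at 874 bp. The summits farthest upstream were at −807 bp for *Ndufa13* in the control female and −682 bp for *Ndufa11* in the VEDS male list. Without the members that have such a neighbour 81.7% and 88.3% of 60 genes kept a promoter peak, against 37.5% and 48.1% of all genes without one, and the median widths were 287 and 441 bp against 290 and 425.5 bp.

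Motif letters were counted on both strands from −200 to +99 of the TSS, a window of 300 bp. The NRF1 letters were present in 22 of 91 member promoters (24.2%, 16.5 to 33.9), against 8.72% of all promoters and 16.6% of those with a control female peak, which lies at the edge of the interval. The YY1 letters were present in 12 (13.2%, 7.71 to 21.6), against 3.77% and 7.49%. The ETS letters were present in 7 (7.69%, 3.78 to 15), against 5.24% and 9.88%, so that the interval holds both background shares. With the shorter ETS letters CCGGAAG they were in 23.1% of members against 11.8% of all promoters. Among mitochondrial ribosomal, cytosolic ribosomal and proteasome genes the shares were 17.9%, 13.9% and 15.8% for NRF1, 21.8%, 9.72% and 15.8% for YY1, and 16.7%, 19.4% and 18.4% for ETS. Against the members' intervals, the mitochondrial ribosomal share lies inside for NRF1 and above for YY1, the other shares lie below for NRF1 and inside for YY1, and for ETS every family lies above. The families' own intervals overlap those of the members for each of these factors, and differences between families were not tested. From −250 to +49 the YY1 share was 6.59% (3.06 to 13.6), an interval that holds the 3.14% of all promoters. A match is a run of letters in the reference and not a bound site.

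**Figure D4:**
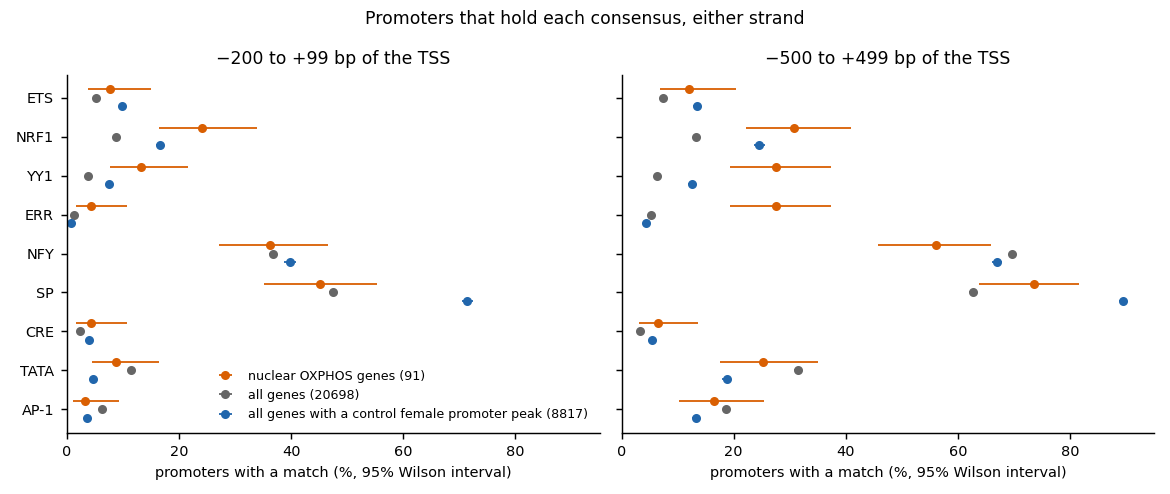
Percent of promoters (x axis, with 95% Wilson intervals) that hold the letters of each factor family (y axis) on either strand, from −200 to +99 bp (left) and within 500 bp of the TSS (right), for the respiratory chain genes, all genes, and all genes with a control female promoter peak. In the wide window 27.5% of members hold the YY1 letters (6.38% of all genes) and 27.5% the ERR letters (5.33% of all genes).

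Within 500 bp the NRF1 letters were in 30.8% of members (22.2 to 40.9), against 13.2% of all promoters. Promoters with a control female peak had them in 24.5% and mitochondrial ribosomal genes in 33.3%, both inside the members' interval. Cytosolic ribosomal (20.8%, 13.1 to 31.6) and proteasome genes (21.1%, 11.1 to 36.3) lay below it with overlapping intervals. The YY1 share in this window was 23.1% among mitochondrial ribosomal and 23.7% among proteasome genes, inside the members' interval (19.4 to 37.4). Among cytosolic ribosomal genes it was 16.7% (9.8 to 26.9), a share below that interval with an overlapping interval of its own. The ERR share was 12.8%, 2.63% and 1.39% in the same order of families, each below the members' interval, which has the same bounds. The mitochondrial ribosomal interval for ERR (7.12 to 22) overlaps it, while the proteasome (0.466 to 13.5) and cytosolic ribosomal (0.246 to 7.46) intervals do not. Other letters were searched from −200 to +99. CCAAT, the box of NFY, was in 36.3% of members and 36.7% of all promoters, and TATAAA in 8.79% and 11.5%. The SP box GGGCGG was in 45.1% of members, 47.5% of all and 71.4% of the promoters with a control female peak. The members' windows had a median GC content of 58% (all genes 58%, those with a control female peak 63.7%) and a median of 20 CpG sites (15 and 24). TGACGTCA, the site of CREB, was in 4.4% of members and 2.45% of all, and TGANTCA, the site of AP-1, in 3.3% and 6.29%. ERR letters were in 4 members (4.4%) and 1.23% of all promoters in this window.

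No member held the ETS, NRF1 and YY1 letters together in the window, and 4 held 2 of the 3: *Atp5h* and *Uqcr11* with ETS and NRF1, and *Ndufa6* and *Uqcrc1* with NRF1 and YY1. At least 1 of the 3 was present in all but 54 of the 91 (59.3% with none, against 84.1% of all promoters). Within 500 bp of the TSS *Atp5h*, a stalk subunit of ATP synthase, held all 3, with NRF1 letters at −98 and ETS letters at 4 bp from the TSS and YY1 letters farther upstream. Most NRF1 matches of the members lay inside the peaks. Over the members with a promoter peak and matches within 500 bp of the TSS, the 45 NRF1 matches were a median of 60 bp from the control female summit and 35 of them lay inside the peak. A site that reads the same on both strands was counted on each, and distances to the summit were not taken over all genes. In the 3 matches of *Sdha* the distances were −66, −23 and 22 bp.

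The positions of the letters differed between factors. The NRF1 letters occurred on either side of the TSS. From −200 to −1 they were in 10 members (11%, against 6.84% of all genes). From 0 to +99 they were in 15 (16.5%, against 2.5% of all genes), so the gap to all genes was wider downstream. The YY1 letters were in 0 members from −200 to −1 and in 13 (14.3%) from 0 to +99, against 1.35% and 2.64% of all genes. In 11 of those 13 they read on the sense strand (84.6%), as did 77% of the 547 matches of all genes there. In 10 of the 11 the ATG inside the letters was the annotated start codon, which held for 67.7% of the 421 sense matches over all genes.

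Within 500 bp of the TSS, 13 members (14.3%, 8.54 to 22.9) had their start codon within sense YY1 letters, against 2.03% of all genes and 4.04% of those with a control female promoter peak. They were 10 of the 34 complex I subunit genes (29.4%), 1 of 4 in complex II (*Sdhb*) and 2 of 9 in complex III (*Uqcrb* and *Uqcrc1*), and 0 of 19 in complex IV, 0 of 17 in complex V and 0 of 8 among assembly factors. The share was 16.7% among mitochondrial ribosomal, 13.2% among proteasome and 5.56% among cytosolic ribosomal protein genes. Of these 13 genes *Ndufa9* and *Ndufs4* were the ones without a control female promoter peak. Antisense YY1 letters, not counted here, overlapped the start codon of *Atp5b* (complex V), *Ndufv2* and *Uqcrfs1*. The 24 YY1 matches of members with a control female peak lay a median of 132.5 bp from its summit, and 15 were inside the peak. Whether the letters at a start codon are bound by YY1 was not tested.

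**Figure D5:**
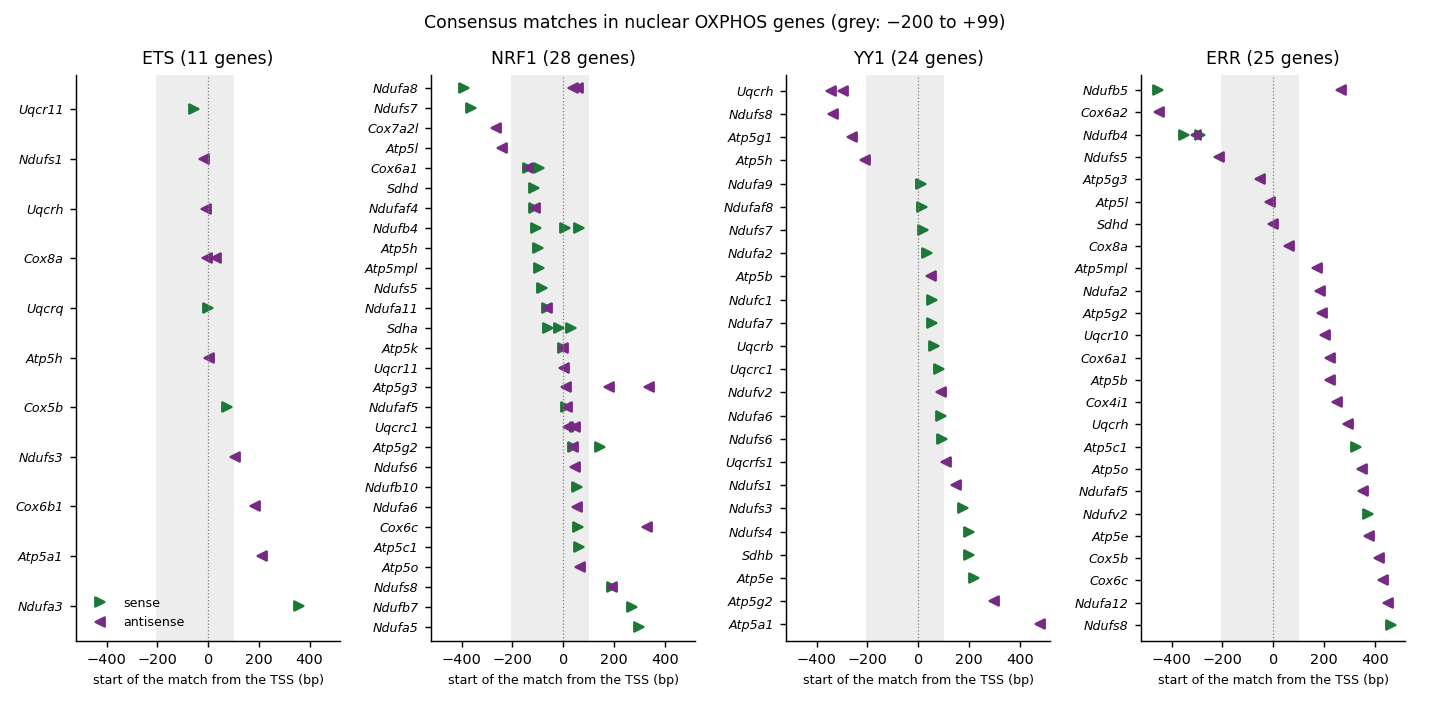
Start of each match from the TSS (x axis, bp) for the respiratory chain genes (y axis, 1 member not drawn) that hold the ETS, NRF1, YY1 or ERR letters within 500 bp, with right-pointing green marks for the sense and left-pointing purple marks for the antisense strand. YY1 marks cluster from 0 to +99 on the sense strand, and ERR marks from 100 to 500 bp downstream on the antisense strand (15 of 18).

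The ERR letters were found farther downstream. From 100 to 500 bp downstream of the TSS they were in 18 members (19.8%, 12.9 to 29.1), against 2.13% of all genes and 1.92% of those with a control female promoter peak. All 18 lay in an intron, as did 67.8% of the 457 matches over all genes. They read on the antisense strand in 15 of 18 (83.3%), against 58% over all genes. Complex V had them in 6 of 17 genes (*Atp5b*, *Atp5c1*, *Atp5e*, *Atp5g2*, *Atp5mpl* and *Atp5o*), complex IV in 4 of 19 (*Cox4i1*, *Cox5b*, *Cox6a1* and *Cox6c*), complex III in 2 of 9, complex I in 5 of 34 and complex II in 0 of 4. Among mitochondrial ribosomal protein genes the share was 7.69%, and it was 0 of 72 for cytosolic ribosomal and 0 of 38 for proteasome genes.

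Unlike the NRF1 letters, the ERR letters mostly lay outside the peaks. Of 26 matches within 500 bp of the TSS in members with a control female promoter peak, 3 were inside it, and the median distance to the summit was 290 bp. In the wider VEDS male peaks 8 of 26 were inside. The 2 nearest the control female summit were those of *Atp5g3* (at −52 bp from the TSS, 5 bp from the summit) and *Sdhd* (at −1 bp, 69 bp from the summit), which lie in the window from −200 to +99.

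Beyond the subunits, 13 regulators of respiratory chain genes were examined. In the control female list 12 had a promoter peak (92.3%, 66.7 to 98.6, against 42.6% of all genes). In the VEDS male list all 13 did (100%, 77.2 to 100, against 52.9%). The ribosomal and proteasome families above ranged from 78.2% to 98.6% and from 94.7% to 100%, so these shares were not particular to the regulators. The one absent from the first list was *Ppargc1b*, a PGC-1 coactivator gene. *Esrra* (ERRα) had a −log10 q of 28.2 and 67.5, *Nrf1* of 11 and 29.7, *Yy1* of 16.2 and 50.1 and *Gabpa* of 13 and 53.8 in the 2 lists. The *Gabpa* peak is the one also assigned to *Atp5j*. *Ppargc1a* had 3.02 and 12.4, with the control female summit at 1071 bp. Of 35 further assembly factors and cytochrome c, 27 and 34 had a promoter peak (77.1% and 97.1%, against 42.6% and 52.9% of all genes). The one absent from both was *Sdhaf1*. *Cycs* (cytochrome c) had 41.4 and 84.3. In the short lists *Sp1* was found in both, *Tfb1m* in the VEDS female and *Cox14* in the control male.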

How the data were processed

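ATAC-seq peak lists of 4 mouse aortic libraries were analyzed, 1 per genotype and sex. According to the methods, the authors aligned reads to mm10, removed duplicates with regard to cell barcodes, shifted reads to the Tn5 insertion point, ran MACS2 in its narrow mode and left out blacklisted regions. The aligner and the calling threshold are not given in the sources used here. Each deposited list gives, per peak, a score, a fold enrichment (a ratio of fragments to the local background, with a pseudocount of 1), −log10 p, −log10 q and the summit offset, all as the authors' caller wrote them. The deposited −log10 q values have a floor between 1.3 and 1.32 in every list. Fragments at a summit were recovered from the deposited fold and −log10 p, which succeeded for 99.27% to 99.93% of peaks, and their medians of 6 to 22 limit what the short lists can show.

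Genes and transcripts came from GENCODE vM21 on GRCm38, the build of the lists, with 1 TSS per gene (the coding transcript with the best APPRIS tag, then support level, CCDS tag, annotation level and length). Of several peaks within 1 kb the one with the highest −log10 q was used. Motif letters were read from the reference sequence. Shares have 95% Wilson intervals. Libraries were compared by an exact permutation test. Peak assignment and letter search were tested on simulated data. Genes named were those found in 1 long list, in none or in a short list, the strongest per complex, the extremes of width and position, isoform pairs and the closest neighbours. Others were named after their values were seen. Members and lists were chosen with earlier results of these data known. Alternatives were other distances, TSS choices, −log10 q thresholds of 5 and 10, equal list length, other windows and letters, and leaving out genes or a library. Python 3.11.15, numpy 2.4.6, pandas 2.3.3, scipy 1.17.1 and matplotlib 3.10.9 were used. RNA data and protein sequences were not analysed here. The values of 1 member, which is in all counts, are not reported here.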

Additional observations from a re-analysis of the deposited data

Results flagged for a closer look

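The change in promoter peaks between genotypes had opposite signs in the sexes. The share of members with a promoter peak in VEDS minus control was −85.7 percentage points in females (1.1% against 86.8%) and 89 points in males (92.3% against 3.3%). Over all protein-coding genes the share went the same ways, from 42.6% in control to 1.27% in VEDS females and from 1.23% to 52.9% in males, so the change is not one of the members alone. Each value rests on 1 library per genotype and sex, and the difference between the sexes was not tested. The lists held 504 against 21176 peaks in females and 41444 against 1236 in males, and genotype and list length cannot be told apart within a sex.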

How the results depend on the processing

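Of 90 recomputed values of the main results, 71 stayed within the interval of the value reported or, for the genotype difference, kept its sign. For the letters other than ETS, NRF1 and YY1, 22 recomputed shares stayed within the interval and 8 moved out of it. The share of members with a promoter peak was 67% in the control female list at a −log10 q of at least 10 (28.6% of all genes), and with equal list length 3.3% there and 6.59% in the VEDS male list, against 2.24% of all genes in each. Without tissue isoforms and assembly factors it was 96% and 98.7%. In the control male list it was 1.1% at a −log10 q of at least 5 (0.449% of all genes) or with equal length (0.546%) and 0% at 10 (0.0918%). In the VEDS female list it was 0% at 5 (0.377% of all genes) and at 10 (0.0628%). The genotype difference ranged from −44 to 47.3 points when each library was left out, with −40.1 points without the control male and −44 without the VEDS male library. ETS letters were in 0% of members with the stricter ACCGGAAGT (1.38% of all promoters) and in 23.1% with the relaxed letters, and NRF1 letters in 11% (GCGCATGCG, 2.25% of all) and 14.3% (GCATGCGC, 3.45%). YY1 letters were in 6.59% from −250 to +49 (3.14% of all) and in 27.5% within 500 bp (6.38%). Within 3 kb, 100% of the other assembly factors had a VEDS male peak, against 56.3% of all genes. The control female summit median was −47 bp at a −log10 q of at least 10, against −60 bp for all genes. No paired analysis was possible because the labels number no replicates and no mice are shared. The sexes give 1 control and 1 VEDS library each, whose differences are given above without a test.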

Other observations

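Peaks inside the genes, away from the TSS, were few. At least 1 was present in 3 members (3.3%, 1.13 to 9.25) in the control female list (*Cox4i2*, *Ndufa10* and *Ndufaf2*) and in 5 (5.49%, 2.37 to 12.2) in the VEDS male list (the same 3 with *Ndufaf6* and *Ndufv3*), against 15.1% and 26.1% of all genes. The shares were 3.85% and 10.3% among mitochondrial ribosomal, 1.39% and 4.17% among cytosolic ribosomal and 7.89% and 18.4% among proteasome genes. Members are shorter than all genes, with a median length of 7.46 kb against 17.6 kb, and the part of length in their gap to all genes was not tested. The peak in *Cox4i2*, which had no promoter peak, began 4.3 kb downstream of its TSS in the control female list and 4.23 kb in that of VEDS males, with a −log10 q of 4.33 and 10.8. Near *Ndufa4l2*, whose promoter also had none, a peak ended 1.9 kb and 1.84 kb upstream of the TSS, with 5.77 and 13.8.

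*Ndufa9* and *Ndufaf5* had strong promoter peaks in the VEDS male list and none in the control female list. Their promoter peaks were in the fifth of the VEDS male list with the highest −log10 q (rank 6248 and 4187 of 41444), but no control female peak lay within 90 kb of either TSS. Of 5847 genes with a VEDS male promoter peak there, 112 (1.92%) had no control female promoter peak, and among members these were 2 of 61. In the next one it was 18% of 2712 genes and 1 of 17 members. The 2 of 61 members are 3.28%, and whether this differs from the 1.92% of all genes was not tested. The *Ndufaf5* TSS lay 85 bp from that of *Esf1* on the opposite strand, so that peak cannot be assigned to either gene. The median summit of the VEDS male list held 22 fragments against 14 in that of control females. Whether the 2 promoters differ between genotypes, sexes or mice was not tested.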
